A study of Mus musculus with 4 samples.

Results

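The genes of the creatine and calcium futile cycles were examined in fetal brown adipose tissue (BAT), 8 genes chosen by name from the 22298 genes of the count table. They were the creatine cycle genes Ckb, Ckmt1, Gatm, Gamt, Slc6a8 and Alpl and the calcium cycle genes Ryr2 and Atp2a2, all found by symbol. BAT was taken at E18.5 from C57BL/6 fetuses labelled male, whose dams drank tap water (control, 2 libraries) or 20% (w/v) fructose water (fructose, 2 libraries) during pregnancy. Gene expression was measured by RNA-seq. The number of fetuses or litters behind a library is not given in the sources used here. A p-value thus measures the spread between 2 libraries of a group, which may be partly technical. In edgeR's test this spread is shared across genes, with a median of 9.87 prior degrees of freedom beside 2 of the gene itself. The comparison asks whether these 2 heat-producing cycles, which do not need UCP1, differed in level between fetal BAT of fructose-fed and control dams.

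In brown fat, heat is made mainly by UCP1, which lets protons return to the mitochondrial matrix without making ATP. Other routes spend ATP in a loop that does no net work. In the creatine cycle, a creatine kinase puts the phosphate of ATP on creatine and a phosphatase takes it off again, so that ATP is consumed and respiration goes on. In the calcium cycle, a SERCA pump uses ATP to move calcium into the endoplasmic reticulum, and ryanodine or inositol trisphosphate receptors let it out again. Several proteins of both cycles are also core parts of the energy supply and calcium handling of skeletal and heart muscle.

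Total counts ranged from 18542897 to 23645147 per library, and a gene with 0 counts could at this depth have a level of up to 0.122 to 0.166 CPM (3 counts, for counting error only). CPM is a gene's count scaled to a library of fixed size, after TMM normalization. As a check of the sex label, counts of 4 genes of the Y chromosome (Ddx3y, Eif2s3y, Uty and Kdm5d) were summed. They came to 422 and 390 for control, while neither fructose library had any (0), so the fructose libraries go against their label as male. No comparison without them is possible, and fetal sex and maternal fructose cannot be told apart in any result that follows. Ucp1, the defining gene of brown fat, was at 9705 to 12425 CPM, and its groups overlapped. Of 20 skeletal muscle marker genes, 19 were tested and 19 were higher in fructose, with a summed level of 305 and 407 CPM in control and 913 and 715 CPM in fructose. Mitochondrially encoded genes took 5.89% and 6.49% of the counts in control and 10.8% and 11.2% in fructose. Among the 11 brown adipocyte markers, 3 were called higher and 1 lower (median log2 fold change 0.27), and among 8 markers of adipocytes in general, 2 were called higher and 3 lower (median -0.13). Over all 12888 tested genes, 15.5% were called higher and 10.7% lower. Of the 6 erythroid markers, 5 were lower. In bulk tissue, fewer cells of a type and less RNA per cell cannot be told apart.

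Of the 8 genes, only Gatm was called, higher in fructose, by edgeR's quasi-likelihood test at a Benjamini-Hochberg adjusted p under 0.05. The genes Ckmt1 and Ryr2 had too few counts to be tested, and the other 5 genes tested (Ckb, Gamt, Slc6a8, Alpl and Atp2a2) were not called. With 15.5% of all tested genes called higher and 10.7% lower, 26.2% in all, 1 call among 6 tested genes is near the background. No gene of the 8 was called lower by edgeR or by DESeq2, and at an unadjusted p under 0.05 Ckb was lower by both tools. DESeq2 called no gene of the 8 higher, with Gatm higher at an unadjusted p under 0.05. The study's methods set thresholds of an unadjusted p under 0.05 and a change of more than 1.3-fold, with DESeq2. With these thresholds put on edgeR's test instead, Gatm was again the only one called. Of all tested genes, 17.6% then passed as higher and 6.18% as lower, 23.8% in all. Scaling by library size alone moved the calls over all genes from 2001 higher and 1379 lower to 2242 higher and 859 lower, with Gatm called and the other tested genes not called under it. The median log2 fold change was -0.0030 over the 6 tested genes and 0.0025 over all tested genes. The libraries of the groups did not overlap for 4 of the 6 tested genes (Ckb, Gatm, Alpl and Atp2a2), against 65.1% of all tested genes.

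**Figure D1:**
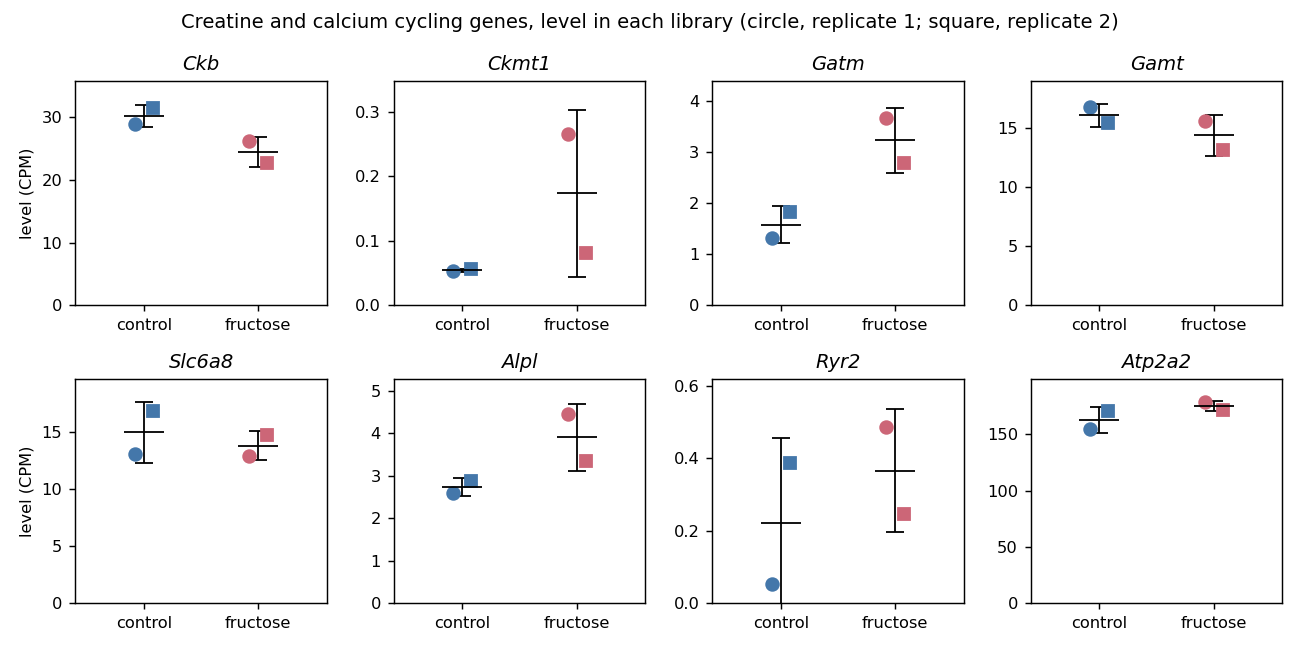
Level of each of the 8 genes in CPM (y axis, starting at 0, a scale per gene) in the control and fructose libraries (x axis), with circles for replicate 1, squares for replicate 2, and bars for the mean and SD (n = 2). Gatm and Alpl lie higher and Ckb lower in both fructose libraries than in both control libraries, while the scales of Ckmt1 and Ryr2 end below 1 CPM.

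The levels spanned a wide range. Divided by the length of all annotated exons, Atp2a2 was the highest of the 8 at 27.8 CPM per kb (mean of 4 libraries), followed by Gamt at 10.6 and Ckb at 9.44 CPM per kb. The libraries of Gamt and Ckb overlapped in this order, and so did those of Alpl (0.823 CPM per kb) and Gatm (0.799 CPM per kb). Slc6a8 stood between these pairs at 2.76 CPM per kb. Ckmt1 (0.0456 CPM per kb) and Ryr2 (0.0102 CPM per kb) were the lowest. Per kb, Ucp1 was 593 to 748 times as high as Ckb and 208 to 270 times as high as Atp2a2 within the same library.

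Ckb encodes the brain-type creatine kinase, which in brown adipocytes has been placed in the creatine cycle. It lies on the minus strand of chromosome 12 from 111669361 to 111672338 (mm10). Its level was 29.0 and 31.5 CPM in control and 26.1 and 22.7 CPM in fructose. Both fructose libraries were below both control libraries, and the groups did not overlap. The log2 fold change was -0.31 (standard error 0.11, 95% interval -0.55 to -0.067), which edgeR did not call after adjustment (adjusted p = 0.059). It was called without control replicate 1 (-0.37, edgeR adjusted p = 0.021) and with the replicate number as a block (-0.31, edgeR adjusted p = 0.049). It was at -0.21 without fructose replicate 2 (edgeR adjusted p = 0.41) and at -0.072 after removal of the GC trend (edgeR adjusted p = 0.69). Of the 50-base words of its longest transcript, 7.96% also occur in processed copies of the gene (Gm12892, Ckb-ps1 and Ckb-ps2) that the count table does not list, and how such reads were counted is not given in the sources used here.

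Ckmt1, the ubiquitous mitochondrial creatine kinase on chromosome 2 (121357714 to 121363737), which passes phosphate from mitochondrial ATP to creatine, was close to undetected. It had 1 and 1 counts in control and 6 and 2 counts in fructose. The ratio of the pooled levels was 3.14 with an exact counting interval of 0.627 to 30.4, so neither a rise nor a fall was detectable at this depth. Its exons overlap those of Strc on the opposite strand by 10 bases.

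The other creatine kinases were both called higher. Ckm, the cytosolic kinase of muscle, was at 29.97 and 41.3 CPM in control and 96.9 and 68.5 CPM in fructose (log2 fold change 1.22, standard error 0.16, edgeR adjusted p = 0.00066). Ckmt2, the mitochondrial kinase of muscle and heart, was at 1.64 and 2.05 CPM in control and 5.53 and 5.23 CPM in fructose (log2 fold change 1.54, standard error 0.25, edgeR adjusted p = 0.0015). For both genes the fructose libraries lay well above the control libraries. Both kept their calls in all 17 alternatives tried, and the skeletal muscle markers rose beside them. Their part in this result was not tested.

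Within each library, the make-up of the creatine kinases was compared, since a share does not depend on how libraries are scaled. Shares, here and in the other families, still carry any trend with GC content or length, which was not removed from them. Ckb has 61.7% GC and Ckm 54.0%. Per kb, Ckb made up 46.7% and 41.1% of the kinase level in control, and 19.6% and 22.5% in fructose. The share of Ckm was 48.0% and 53.6% in control, against 72.1% and 67.3% in fructose. Ckmt2 went from 5.14% and 5.22% to 8.07% and 10.1%. Ckmt1 stayed at or under 0.231% in each library. Ckb and Ckm were thus near parity in control, and Ckm led in both fructose libraries. Of the raw kinase counts, Ckb held 47.8% (Wilson 95% interval 44.9% to 50.7%) and 42.1% (39.5% to 44.7%) in control and 20.3% (18.9% to 21.8%) and 23.6% (21.9% to 25.3%) in fructose. These intervals cover counting error only, and with 2 libraries against 2 an exact two-sided permutation test cannot go below p = 0.33. The summed kinase level per kb was 21.4 and 26.4 in control and 46.1 and 34.9 in fructose.

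The promoter sequences of the kinases Ckb and Ckm, whose shares moved apart, and of Gatm, the only called gene of the 8, are shown from 250 bases before to 50 bases after the RefSeq transcript start (GRCm38.p6, which is mm10). They are Ckb at chr12:111672289-111672588 (minus strand), Ckm at chr7:19410844-19411143 (plus strand) and Gatm at chr2:122611228-122611527 (minus strand), written 5′ to 3′ along the gene's strand.
Ckb: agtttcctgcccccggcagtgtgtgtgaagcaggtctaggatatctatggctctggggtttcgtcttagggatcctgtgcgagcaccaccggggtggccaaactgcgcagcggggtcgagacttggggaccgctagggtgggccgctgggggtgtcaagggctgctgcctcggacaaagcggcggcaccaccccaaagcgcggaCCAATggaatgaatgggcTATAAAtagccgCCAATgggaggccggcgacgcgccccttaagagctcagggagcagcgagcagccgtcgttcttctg
Ckm: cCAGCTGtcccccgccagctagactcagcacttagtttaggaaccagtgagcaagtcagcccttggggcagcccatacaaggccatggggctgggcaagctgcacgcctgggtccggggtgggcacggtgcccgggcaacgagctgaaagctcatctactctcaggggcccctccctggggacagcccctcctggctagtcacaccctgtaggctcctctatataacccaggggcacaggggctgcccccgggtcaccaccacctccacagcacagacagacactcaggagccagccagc
Gatm: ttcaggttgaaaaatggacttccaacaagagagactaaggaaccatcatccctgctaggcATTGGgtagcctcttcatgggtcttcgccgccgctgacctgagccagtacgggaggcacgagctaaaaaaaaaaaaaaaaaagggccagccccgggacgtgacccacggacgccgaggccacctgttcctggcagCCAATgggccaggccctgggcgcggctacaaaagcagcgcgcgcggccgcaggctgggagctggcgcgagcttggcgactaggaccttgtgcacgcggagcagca
Capitals mark each match, on either strand, to the E-box CAGCTG, the nuclear receptor half-site AAGGTCA, the CCAAT box (CCAAT) or the TATA box (TATAAA). Of 32851 promoters of this length, 16.3% held CAGCTG, 4.72% AAGGTCA, 37.4% CCAAT and 13.6% TATAAA. The Ckb promoter held 2 CCAAT boxes around 1 TATA box, the Gatm promoter 2 CCAAT boxes and the Ckm promoter 1 E-box. A match says only that the letters occur there.

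Creatine is made in 2 steps. Gatm encodes the mitochondrial enzyme that joins arginine and glycine to guanidinoacetate, the step that limits the rate of synthesis. It lies on the minus strand of chromosome 2 from 122594467 to 122611303. Its level was 1.32 and 1.83 CPM in control and 3.67 and 2.78 CPM in fructose, from 25, 33, 83 and 68 counts. Each fructose library was above each control library. The group means were 1.57 ± 0.361 CPM and 3.22 ± 0.632 CPM (SD, n = 2), and the log2 fold change was 1.03 (standard error 0.31, 95% interval 0.36 to 1.70, edgeR adjusted p = 0.028). The call of Gatm was lost with DESeq2 (adjusted p = 0.11), after removal of the trend of fold change on GC content (log2 fold change 0.72, edgeR adjusted p = 0.13) and after removal of the GC and length trends together (0.91, edgeR adjusted p = 0.086). It was also lost without control replicate 1 (0.81, edgeR adjusted p = 0.084) or without fructose replicate 1 (0.82, edgeR adjusted p = 0.20), fits in which the lone library is assumed to vary like the other group.

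Gamt encodes the methyltransferase that turns guanidinoacetate into creatine, and lies on chromosome 10 from 80258151 to 80261012. It was at 16.8 and 15.4 CPM in control and 15.7 and 13.1 CPM in fructose. The groups overlapped. Its log2 fold change was -0.16 (95% interval -0.47 to 0.14, edgeR adjusted p = 0.42), and turned to 0.28 with both trends removed. Per kb, Gamt was 26.4 and 17.5 times as high as Gatm in control and 8.86 and 9.84 times in fructose.

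Slc6a8, the transporter that takes up creatine from the blood, is on the X chromosome from 73673150 to 73682502. Its level was 13.1 and 16.9 CPM in control and 12.9 and 14.7 CPM in fructose. The groups overlapped, and the fructose libraries fell within or just below the span of the control libraries. The log2 fold change was -0.11 (95% interval -0.45 to 0.22, edgeR adjusted p = 0.63), and turned to 0.080 without control replicate 2. For this X-linked gene, too, fetal sex and maternal fructose cannot be told apart.

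Alpl encodes tissue-nonspecific alkaline phosphatase, the phosphatase that splits phosphocreatine in the creatine cycle and that is also a marker of bone-forming cells. It lies on chromosome 4 from 137741733 to 137796384. Its level was 2.59 and 2.88 CPM in control and 4.47 and 3.35 CPM in fructose. Both fructose libraries were above both control libraries, and fructose replicate 1 was the highest. The log2 fold change was 0.51 (standard error 0.26, 95% interval -0.052 to 1.08), which edgeR did not call (adjusted p = 0.16), and no alternative called it (adjusted p from 0.082 to 0.63). With both trends removed it was 0.73 (95% interval 0.19 to 1.27, edgeR adjusted p = 0.089). The 10 bone and cartilage markers summed to 2.01 and 2.33 CPM in control and 2.96 and 1.84 CPM in fructose. Acan held the most of their counts, 21 and 27 in control and 40 and 19 in fructose. Acan and Col10a1 were the 2 tested, and neither was called. Sp7 had 5 and 2 counts in control and 5 and 9 in fructose, and Runx2 had 4 and 0 in control and 5 and 7 in fructose. Bglap, Ibsp and Matn1 had 0 counts in each library.

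Atp2a2 encodes SERCA2, the calcium pump of the endoplasmic reticulum in most tissues and the pump of the calcium cycle in beige fat. It lies on chromosome 5 from 122453513 to 122502225. Its level was 155 and 171 CPM in control and 179 and 172 CPM in fructose, from 2929, 3084, 4039 and 4214 counts. The groups did not overlap, but control replicate 2 (171.0 CPM) and fructose replicate 2 (172.0 CPM) were close. The log2 fold change was 0.11 (standard error 0.08, 95% interval -0.077 to 0.29, edgeR adjusted p = 0.37), and removal of the length trend turned it to -0.13. Of its 50-base words, 3.61% occur in Gm30970, which the count table does not list.

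Among the 3 SERCA pumps, Atp2a2 held most of the level per kb in each library, 80.8% and 76.0% in control and 65.4% and 66.6% in fructose. Atp2a1, the pump SERCA1 of fast skeletal muscle, held 10.2% and 15.1% in control and 27.3% and 27.7% in fructose. Atp2a1 itself was at 11.1 and 19.4 CPM in control and 42.7 and 40.9 CPM in fructose (log2 fold change 1.46, standard error 0.18, edgeR adjusted p = 0.00046). Atp2a3, the third pump, was not called (log2 fold change -0.10, edgeR adjusted p = 0.67). Both the fall in the share of Atp2a2 and the rise of Atp2a1 held in each fructose library against each control library, beside the skeletal muscle markers, whose part was not tested.

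Ryr2, the ryanodine receptor of heart, on chromosome 13 from 11553102 to 12106945, had 1 and 7 counts in control and 11 and 6 counts in fructose. The groups overlapped. The ratio of the pooled levels was 1.67 with an exact counting interval of 0.682 to 4.47, so a difference was not detectable at this depth. Most ryanodine receptor reads were on Ryr1, the skeletal muscle receptor, at 95.2% and 83.7% of the family level per kb in control and 85.1% and 92.9% in fructose. Ryr1 rose from 0.792 and 2.16 CPM to 4.42 and 4.86 CPM (log2 fold change 1.66, standard error 0.36, edgeR adjusted p = 0.0067), and its call was lost with the length trend removed (0.98, edgeR adjusted p = 0.074) or both trends removed (1.14, edgeR adjusted p = 0.068). Without control replicate 2 its log2 fold change was 2.54, and without control replicate 1 it was 1.1. The family as a whole had only 16 and 48 counts in control, against 119 and 129 in fructose. Of the 9 heart markers, 2 were tested and 2 were called higher, where 15.5% of all tested genes were. They were Tnnt2 (log2 fold change 1.65, edgeR adjusted p = 0.034) and Myl4 (0.56, edgeR adjusted p = 0.046). The heart markers summed to 6.54 and 8.26 CPM in control and 13.1 and 10.3 CPM in fructose. Myh6 was at 0 counts for both controls and at 2 and 5 for fructose, and Nppb and Nkx2-5 had 0 counts in each library. Tnni3 had 0 and 1 counts in control and 1 and 0 in fructose, and Myl7 had 1 and 0 against 0 and 1. Nppa had 2 and 0 counts in control and 1 and 0 in fructose, and Mybpc3 had 0 and 0 against 1 and 0. The calls of Tnnt2 and Myl4 stand beside the 19 of 19 tested skeletal muscle markers that were higher, whose part was not tested.

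**Figure D2:**
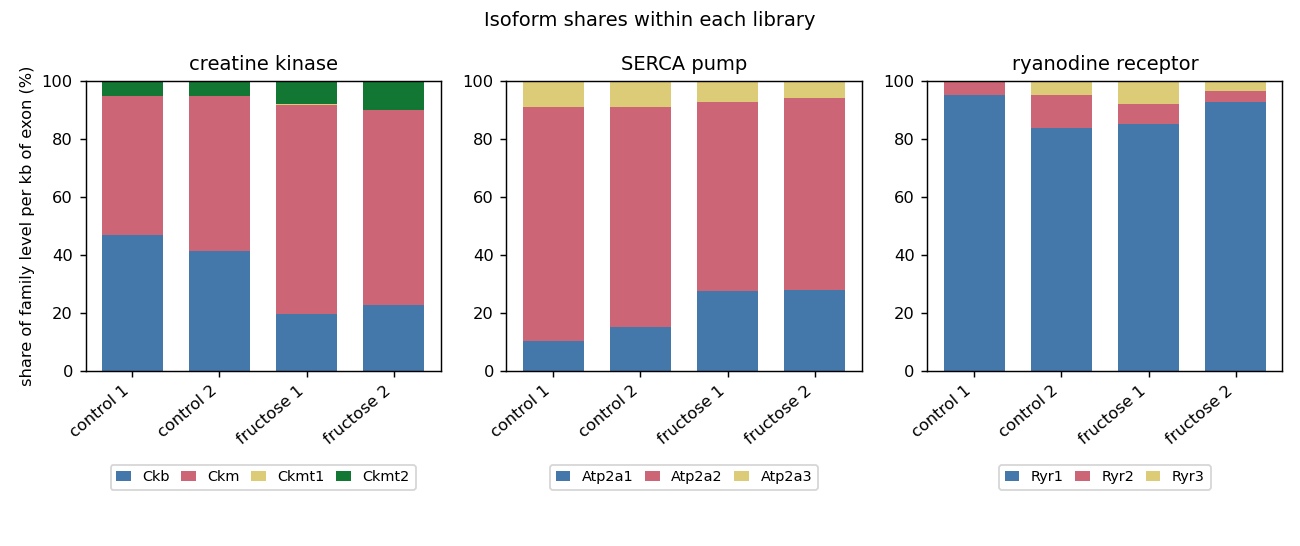
Stacked shares (y axis, % of the family's level per kb of exon) of the creatine kinases, SERCA pumps and ryanodine receptors in each of the 4 libraries (x axis). The Ckb share is 41.1% or more in both control libraries and 22.5% or less in both fructose libraries, the Atp2a2 share is lower in both fructose libraries, and Ryr1 leads its family in each library.

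The regulators of the SERCA pumps were mostly low. Sarcolipin (Sln), a small peptide that uncouples the pump's ATP use from calcium transport, was at 2.80 and 4.33 CPM in control and 9.86 and 7.31 CPM in fructose (log2 fold change 1.27, standard error 0.24, edgeR adjusted p = 0.0036). Phospholamban (Pln) and Strit1 had 0 counts in each library. Mrln had 1 and 0 counts in control, against 5 and 4 in fructose, and Thada was not called (log2 fold change 0.05, edgeR adjusted p = 0.84). Erln and Arln were not matched to the table. Per kb, Atp2a2 was 12.0 and 8.57 times as high as Sln in control and 3.93 and 5.10 times in fructose.

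Calcium release and storage genes were next described. Of 12 release genes, 9 were tested, 4 were called higher (Ryr1, Itpr1, Itpr2 and Asph) and 1 lower (Fkbp1a), with a median log2 fold change of 0.26, where 15.5% of all tested genes were called higher and 10.7% lower. Fkbp1a, which binds and steadies the release channels, was at -0.29 (edgeR adjusted p = 0.034) and at -0.035 with both trends removed. Itpr1 and Itpr2, the inositol trisphosphate receptors that carried far more reads than the ryanodine receptors, had log2 fold changes of 0.26 (edgeR adjusted p = 0.041) and 0.41 (edgeR adjusted p = 0.022). Both turned negative with the length trend removed, to -0.23 and -0.16, and Asph turned to -0.032 with both trends removed. Of the 6 lumenal calcium-binding proteins, 4 were called higher, namely calsequestrins Casq1 (1.43) and Casq2 (1.17), Hrc (1.06) and Srl (0.45). These calls stand beside the 15.5% of all tested genes called higher and the 19 of 19 tested skeletal muscle markers that were higher, whose part in them was not tested. The call of Hrc was lost with DESeq2 (1.05, adjusted p = 0.083) and without fructose replicate 2 (0.84, edgeR adjusted p = 0.20). The call of Srl was lost with the length trend removed (0.27, edgeR adjusted p = 0.14), with both trends removed (0.33, edgeR adjusted p = 0.11) and without fructose replicate 1 (0.31, edgeR adjusted p = 0.15). Calr, the highest of them per kb and the calcium buffer of most cells, was not called (log2 fold change -0.059, edgeR adjusted p = 0.63). Sarcolipin, Casq1 and Casq2 kept their calls in all 17 alternatives.

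Of the 32 genes listed for creatine metabolism and its phosphate shuttles, 27 were tested, and 5 were called higher (Gatm, Ckm, Ckmt2, Mat2a and Ak4) and 3 lower (Shmt2, Oat and Vdac2). Mat2a, which makes the methyl donor used by Gamt, had a log2 fold change of 0.33 (edgeR adjusted p = 0.025). Shmt2 and Oat, mitochondrial enzymes of glycine and ornithine metabolism, had log2 fold changes of -0.40 (edgeR adjusted p = 0.0053) and -0.34 (edgeR adjusted p = 0.0099). With both trends removed, none of Mat2a (0.090), Shmt2 (-0.14), Oat (-0.26), Vdac2 (-0.17) and Ak4 (0.82) was called. The median over the 27 genes was -0.080, and 29.6% of them were called against 26.2% of all tested genes. Of the 47 calcium genes, 36 were tested, with 12 called higher, 4 lower, a median of 0.21 and 44.4% called. With both trends removed, 5 calcium genes were called higher and 1 lower, while the calls over all genes went from 2001 higher and 1379 lower to 535 and 639.

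**Figure D3:**
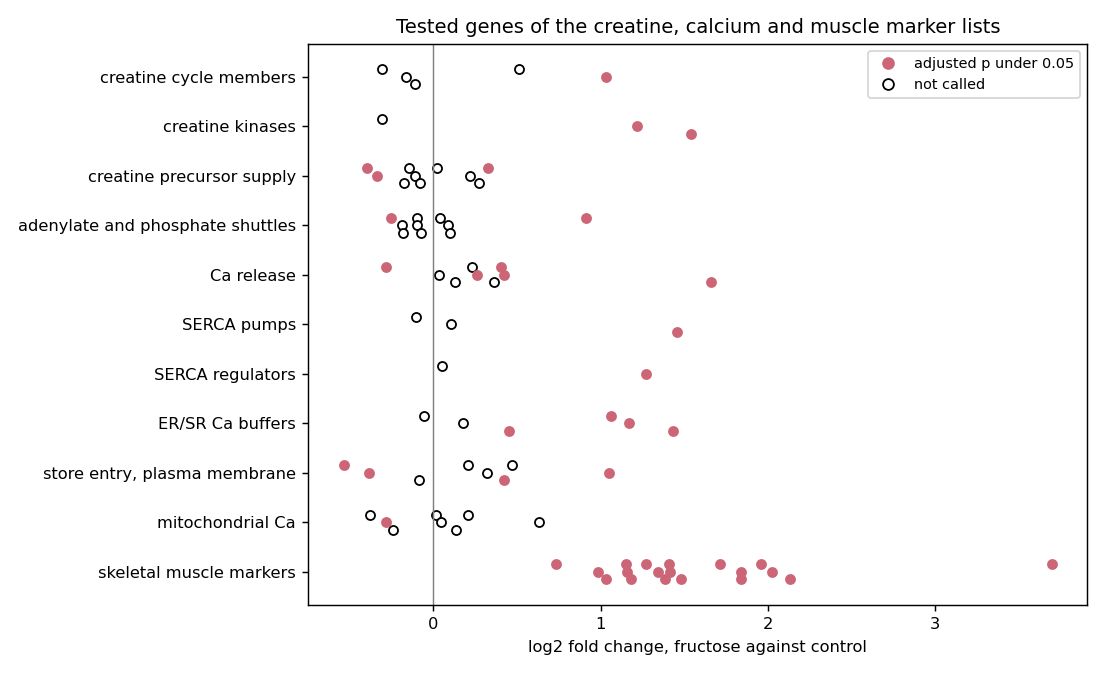
Log2 fold change of fructose against control (x axis) of each tested gene, by list (y axis), with filled points for an adjusted p under 0.05 in edgeR's test. In the kinase, pump, regulator and buffer lists the points above 1 are Ckm, Ckmt2, Atp2a1, Sln, Casq1, Casq2 and Hrc. Ckb lies at -0.31 and Atp2a2 at 0.11, both not called.

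Across all tested genes, fold changes ran with the GC content and length of the transcript, and these differ among the 8 genes. Tested genes were set in 20 bins of equal size. Ckb (61.7% GC) and Gamt (59.7% GC) fell in the bin of the highest GC content, whose 645 genes had their median at -0.25 on the log2 scale, and Ckb's own value was -0.31 and Gamt's -0.16. Gatm (43.2% GC) fell in a bin with a median of 0.28, below its own 1.03. Alpl (56.5% GC) was at 0.51 in a bin with a median of -0.17. Atp2a2, with a transcript of 5674 bases, was at 0.11 in a length bin with a median of 0.24. Gatm and Alpl lay above the interquartile range of genes of like GC content, and Ckb and Gamt lay within theirs. With the GC trend removed, Ckb was at -0.072 (95% interval -0.31 to 0.16, edgeR adjusted p = 0.69), a move of its value by over 1.5 times.

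**Figure D4:**
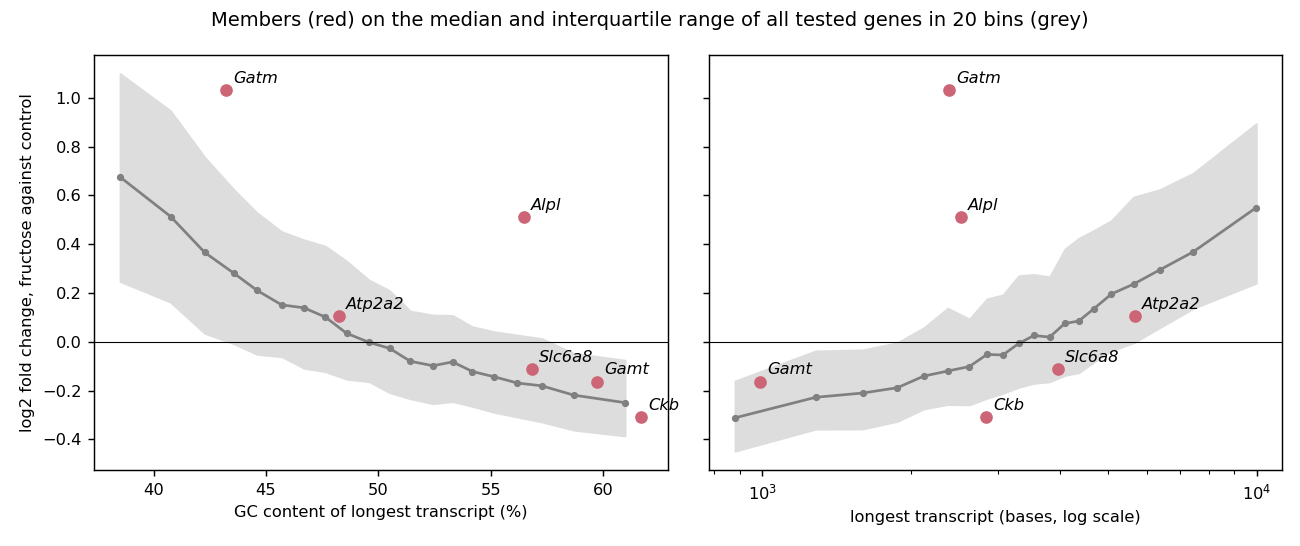
Log2 fold change of fructose against control (y axis) of the 6 tested genes (red) against the GC content in % (left x axis) or length in bases (right x axis, log scale) of the longest transcript. The grey line and band are the median and interquartile range of all tested genes in 20 bins. Ckb and Gamt sit beside the grey line at high GC content, and Gatm and Alpl sit above the band in the length panel.

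**Figure D5:**
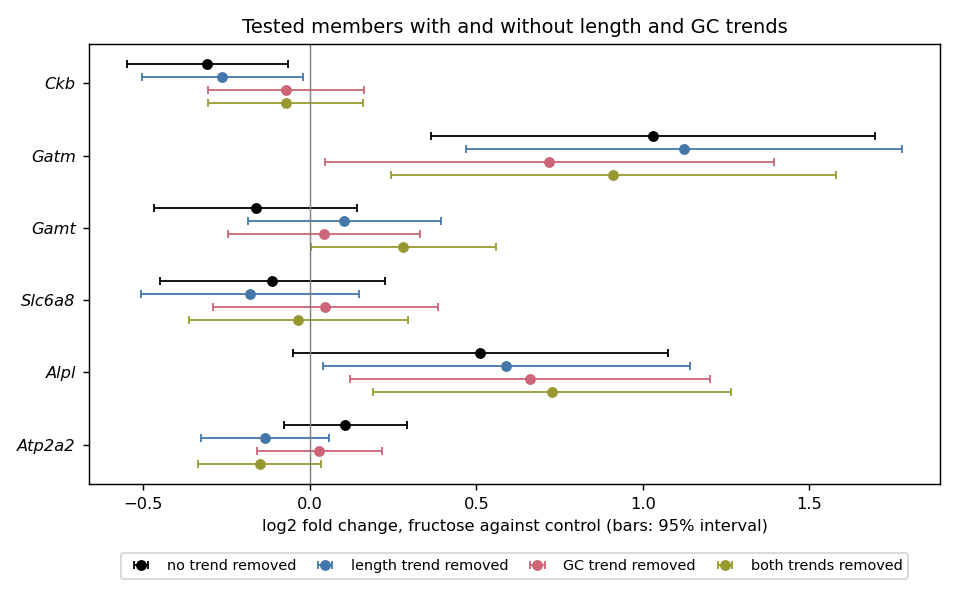
Log2 fold change (x axis) of the 6 tested genes (y axis) with 95% intervals, with the trends on transcript length, on GC content or on both left in or taken out of each library (colours). Gatm stays between 0.72 and 1.12, while Ckb moves from -0.31 to -0.072 with the GC trend removed and Gamt and Atp2a2 change sign.

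The genes whose profile over the 4 libraries was closest to that of Gatm were Mylpf, a fast skeletal myosin light chain, and Zfp968, a zinc finger gene. Their Euclidean distances to Gatm on centred log2 CPM were 0.058 and 0.091. These are the smallest among 12888 tested genes over only 4 libraries. How close other pairs of genes come was not examined, so no link of Gatm to either gene was tested. Mylpf was at 63.3 and 81.8 CPM in control and 161 and 125 CPM in fructose. Zfp968 had 6 and 9 counts in control and 24 and 20 counts in fructose. Kidney and liver markers, tissues where Gatm and Gamt are high, summed to at most 0.499 and 1.02 CPM in any library.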

How the data were processed

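RNA-seq libraries of fetal BAT, 2 control and 2 fructose, were compared. The deposited tables hold raw counts of reads per gene, which the authors made with fastp, Bowtie2 2.0.0.5, TopHat2 2.0.0 and StringTie 2.2.0 on mm10 (submitters' processing notes), merging with Cuffmerge. The counting tool, its strand setting and the annotation release are not given in the sources used here. The 4 single-library tables held the same counts as the full table. Symbols, coordinates, lengths and GC content came from GENCODE M21 (mm10), and promoters from RefSeq GRCm38.p6. Of 22298 listed genes, 43 had no symbol there.

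Genes kept by filterByExpr (12888) were tested with edgeR 4.0.16 (TMM, quasi-likelihood, two-sided, Benjamini-Hochberg over all tested genes) in R 4.3.3, with no covariate. Standard errors are the log2 fold change divided by the root of F. Log2 CPM used a prior count of 2. Alternatives were DESeq2 1.42.0, other scalings and filters, a replicate block, removal of length and GC trends (lowess, span 0.3) and each library left out. The tests were also run on simulated counts drawn with the same spread for every gene. Such counts cannot show how the tests behave on these libraries, whose genes differ in spread. Family shares used Wilson intervals at a 95% level. Same-numbered libraries are not stated to share a litter, so no pairing was used.

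The 8 genes, the lists and the motifs were chosen with earlier results of these data known. Named besides the 8 were list genes at an adjusted p under 0.05, the highest gene of a list per kb, the 2 genes closest in profile to a called gene, the Y-linked genes and Ucp1. List genes that pass none of these (such as Pln, Thada and Mcu) were named, after their values were seen, to account for a family. A result on 1 further list gene is not reported here.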

Additional observations from a re-analysis of the deposited data

How the results depend on the processing

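Of the 8 genes, Gatm was the only one called higher. DESeq2, removal of the GC trend and removal of both trends, the last 2 also with the replicate block, each gave 0 genes called higher and 0 lower, with Gatm higher at an unadjusted p under 0.05 in each, Alpl too in each with a trend removed, Gamt too with both removed and no block, and Ckb lower with DESeq2 alone. With each library left out, 0 to 1 genes were called higher and 0 to 1 lower, the latter being Ckb without control replicate 1 (edgeR adjusted p = 0.021). The replicate block also called Ckb lower (1 gene, edgeR adjusted p = 0.049). The libraries share only a number (correlation of same-numbered deviations -0.027), and the block moved no other count of the lists by over 1.5 times on its own. The median over the 6 tested genes ranged from -0.035 to 0.13 over the alternatives. Over all tested genes, counts that differed by over 1.5 times from the 2001 higher and 1379 lower were 1280 higher with DESeq2, 1154 higher with the length trend removed (1086 higher and 809 lower with the block), 1091 higher with the GC trend removed, 535 higher and 639 lower with both removed (694 and 705 with the block), 859 lower by library size only, 825 lower without fructose replicate 1, and 1207 higher and 485 lower without fructose replicate 2.

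For the creatine list, 3 genes were called higher with DESeq2, the GC trend removed (with or without the block) and the length trend removed with the block, and 2 to 5 with a library left out (3 without control replicate 1, and 2 without fructose replicate 1). Called lower were 1 with the length trend removed, 0 with the length trend removed and the block, 5 with the GC trend removed (with or without the block), and 1 to 6 with a library left out (6 without control replicate 1, and 1 without either fructose replicate). For the calcium list, 6 were called higher with the length trend removed, 7 with the block too, 5 with both trends removed and 6 with the block too. Called lower were 2 by library size only, 1 with the length trend, the GC trend or both trends removed, 1 for length or both with the block, 2 for GC with the block, and 1 to 5 with a library left out (2 without fructose replicate 1, and 1 without fructose replicate 2). A library left out left 8 to 12 higher. The cause was not tested.

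Some signs turned. Slc6a8 was 0.046 with the GC trend removed (0.049 with the block) and -0.29 to 0.080 with a library left out. Gamt was 0.10 with the length trend removed (0.10 with the block), 0.041 with the GC trend (0.040 with the block) and 0.28 with both (0.28 with the block). With the length trend removed and with both trends removed, in that order, Atp2a2 was -0.13 and -0.15 (-0.13 and -0.15 with the block), Itpr1 -0.23 and -0.21 (-0.23 and -0.21), Itpr2 -0.16 and -0.13 (-0.14 and -0.12) and Atp2b4 -0.14 and -0.17 (-0.14 and -0.17). Asph was -0.032 with both trends removed (-0.035 with the block). None of these turned values was called. The order of the 8 mean levels was the same per kb of the longest transcript. Depth limits Ckmt1, Ryr2 and Ryr3, each at most 11 counts in any library.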

Other observations

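Genes of calcium entry and export across the plasma membrane were called in both directions. Of 10 listed genes, 8 were tested, with 2 called higher and 2 lower. Over all tested genes, 15.5% were called higher and 10.7% lower. Orai1 and Orai3, pore subunits of store-operated calcium entry, were lower, at 18.6 and 19.2 CPM in control against 13.0 and 13.1 CPM in fructose for Orai1 (log2 fold change -0.54, edgeR adjusted p = 0.0098) and with a log2 fold change of -0.39 (edgeR adjusted p = 0.011) for Orai3. The calcium export pumps Atp2b1 (1.05, edgeR adjusted p = 0.0066) and Atp2b4 (0.42, edgeR adjusted p = 0.011) were higher, and Atp2b4 turned to -0.17 with both trends removed. None of the 4 was called with both trends removed, where Atp2b1 was at 0.46, Orai1 at -0.21 and Orai3 at -0.15.

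Mcu, the pore of the mitochondrial calcium uniporter, was at 42.4 and 40.8 CPM in control and 40.3 and 45.4 CPM in fructose, and the groups overlapped. Among the 10 adenylate and phosphate shuttle genes, Slc25a5, the carrier that exchanges ADP for ATP, had the highest level per kb and was not called (log2 fold change -0.19, edgeR adjusted p = 0.13), while Ak4 was higher by 0.91 (edgeR adjusted p = 0.019) and the log2 fold change of Vdac2, a channel of the outer mitochondrial membrane, was -0.26 (edgeR adjusted p = 0.044). The call of Vdac2 was lost by library size only (-0.19, edgeR adjusted p = 0.092), with the replicate block (-0.25, edgeR adjusted p = 0.059), with the length trend removed (-0.12, edgeR adjusted p = 0.38), and without control replicate 2 (-0.19, edgeR adjusted p = 0.11), fructose replicate 1 (-0.28, edgeR adjusted p = 0.13) or fructose replicate 2 (-0.22, edgeR adjusted p = 0.28). The call of Ak4 was lost with DESeq2 (0.90, adjusted p = 0.085) and without fructose replicate 1 (0.80). With both trends removed, as given above, neither Vdac2 nor Ak4 was called.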
